A study of Mus musculus with 4 samples.

Results

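Transcripts of 10 trophoblast lineage genes, *Cdx2*, *Elf5*, *Gata3*, *Hand1*, *Esx1*, *Krt8*, *Krt18*, *Krt19*, *Tead4* and *Tfeb*, were followed in mouse embryonic stem cells (mESCs) with and without a deletion of *Spen*. The members were chosen by name as regulators and structural genes of the trophoblast lineage. This choice, and that of the gene lists below, was made with earlier results of these data known. All 10 members were found among the 37310 genes of the count table, *Tfeb* under its older symbol *Tcfeb*. RNA from which ribosomal RNA had been depleted was sequenced from 2 libraries of the line HATX WT and 2 libraries of Spen KO clone 2, which is derived from it. HATX is a haploid mESC line with a doxycycline-inducible *Xist* on the X chromosome; no treatment is given for any of the 4 libraries, and all cells were grown in serum and LIF on gelatin. WT is represented by a single line and KO cells by a single clone. The study describes the deletion in its results as full and in its methods as covering most of the gene.

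The trophoblast is the lineage that forms the placenta. In the blastocyst its outer cells keep TEAD4 and its coactivators YAP1 and WWTR1 active and switch on *Cdx2* and *Gata3*, while the inner cells, from which mESCs derive, keep *Pou5f1* and repress these genes. *Elf5*, *Eomes* and *Esx1* act later in trophoblast stem cells and the placenta, and *Hand1* directs the formation of giant cells. *Krt8*, *Krt18* and *Krt19* encode the simple-epithelium keratins that form the first intermediate filaments of the embryo, and *Tfeb* encodes a basic helix-loop-helix factor needed for the vascularisation of the placenta.

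Libraries held between 36667685 and 61908422 counts, with 21850 to 22591 genes detected by at least 1 count. For *Spen* itself, normalized counts (counts divided by the library's size factor) were 3716 and 3047 in WT and 7797 and 6242 in the libraries labelled KO, which was 1.05 ± 0.21 (SE) higher on the log2 scale (DESeq2, adjusted p = 7.70e-06). Counts summed over the whole gene do not show which exons carry the reads, so they are no measure of the deletion, and the group is named from its label as KO-labelled. Of 8 markers of mESCs, 2 rose and none fell, against 16.4% and 15.8% of all tested genes; *Zfp42* rose by 0.23 and *Dppa5a* by 0.28 on the log2 scale (adjusted p = 0.0149 and 0.000177), and with chromosome medians removed these missed the threshold (adjusted p = 0.255 and 0.0835) while *Esrrb* and *Klf4* passed as higher (adjusted p = 7.93e-05 and 0.0193). The summed level of the 8 markers was 3210 and 3108 RPKM (counts scaled by exon length and library total) in WT and 3533 and 3526 in KO-labelled libraries. Of this, *Dppa5a* alone made up 1700 and 1599 RPKM in WT and 2072 and 1956 RPKM in KO-labelled libraries. The summed level of the 10 trophoblast genes was 33.1 and 32.1 RPKM in WT and 21 and 20.8 RPKM in KO-labelled libraries, so that both groups had the markers of mESCs at a much higher level. Of these sums *Krt18* made up 8.82 and *Krt8* 7.29 RPKM on average in WT, and 4.72 and 4.07 RPKM in KO-labelled libraries. The value of *Krt8* is uncertain, as given below. RNA was measured in bulk, and fewer cells with a transcript cannot be told apart from less transcript per cell.

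Of the 10 genes, 9 had an adjusted p-value and 5 of them fell at an adjusted p under 0.05: *Cdx2*, *Gata3*, *Krt8*, *Krt18* and *Krt19*. Over all 17710 genes with an adjusted p-value, 15.8% were lower and 16.4% were higher by this criterion. Since the members were chosen with earlier results of these data known, these shares describe the list and are no test. No member rose, which held for an unadjusted p under 0.05 (0 higher, 6 lower) and for edgeR (0 higher, 6 lower at an adjusted p under 0.05). With the study's criterion of at least a 2-fold change and an adjusted p under 0.001, *Gata3* and *Krt19* were called lower and 0 members were called higher (edgeR, also 2 and 0), against 3.15% and 1.36% of all tested genes. The median log2 fold change of the 9 was -0.87, against 0.00 for all genes. A low median was not particular to these genes. Among the lists read below it was -1.02 for primitive endoderm markers and -0.85 for other keratins. It was -0.69 for streak and mesoderm and -0.59 for surface ectoderm markers, but 0.01 for mESC and 0.98 for fibroblast markers. *Elf5* had no adjusted p because its mean count fell below the independent filter of DESeq2. Nothing in the labels says that the 2 libraries of a line came from separate cultures, and the p-values measure only the spread between these libraries, which may be technical.

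Promoters of *Cdx2*, *Gata3*, *Krt8* and *Krt18*, 4 of the 5 members that fell, are shown because these letters set the motifs and CpG compared next, and run from 250 bases before to 50 bases after the start of the transcript, taken from RefSeq on GRCm38.p6, 5′ to 3′ on the strand of the gene. *Cdx2* is at chr5:147307200-147307499 (minus strand), *Gata3* at chr2:9878551-9878850 (minus strand), *Krt8* at chr15:102004293-102004592 (minus strand) and *Krt18* at chr15:102027966-102028265 (plus strand). Capitals mark the octamer bound by POU factors in *Cdx2* and the RBPJ motif in *Krt8*.
Cdx2: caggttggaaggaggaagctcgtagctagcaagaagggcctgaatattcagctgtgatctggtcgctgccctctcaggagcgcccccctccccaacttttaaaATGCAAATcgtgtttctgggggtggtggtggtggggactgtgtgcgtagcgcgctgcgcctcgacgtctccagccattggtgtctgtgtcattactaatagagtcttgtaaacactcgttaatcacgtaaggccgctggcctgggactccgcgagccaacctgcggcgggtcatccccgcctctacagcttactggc
Gata3: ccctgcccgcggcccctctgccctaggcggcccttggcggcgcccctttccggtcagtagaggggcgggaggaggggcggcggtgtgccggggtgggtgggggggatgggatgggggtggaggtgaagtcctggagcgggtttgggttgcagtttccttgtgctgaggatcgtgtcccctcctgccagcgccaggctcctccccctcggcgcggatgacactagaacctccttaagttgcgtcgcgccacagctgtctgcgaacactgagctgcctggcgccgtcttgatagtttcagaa
Krt8: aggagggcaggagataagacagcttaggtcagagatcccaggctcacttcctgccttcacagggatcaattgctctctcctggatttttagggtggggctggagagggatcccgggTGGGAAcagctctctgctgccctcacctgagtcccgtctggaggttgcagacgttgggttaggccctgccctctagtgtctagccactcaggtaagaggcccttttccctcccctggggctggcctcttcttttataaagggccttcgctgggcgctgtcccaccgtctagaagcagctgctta
Krt18: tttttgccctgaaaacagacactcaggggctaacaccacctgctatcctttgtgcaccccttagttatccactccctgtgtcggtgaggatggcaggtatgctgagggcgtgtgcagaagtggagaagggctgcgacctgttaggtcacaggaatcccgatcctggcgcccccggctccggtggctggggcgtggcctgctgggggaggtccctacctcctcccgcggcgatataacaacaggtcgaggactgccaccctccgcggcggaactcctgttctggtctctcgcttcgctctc

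RefSeq windows were available for 7 of the 10 genes, 10 windows in all; *Hand1*, *Krt19* and *Tead4* were not matched. The TEAD motif GGAATG was found in 1 of the 10 windows, that of *Elf5*, against 14.7% of all 32851 windows. The RBPJ motif TGGGAA, which can share bases with the TEAD motif, was found in 2 of 10, at *Krt8* and *Tfeb*, against 25.6%. The octamer ATGCAAAT was found in 1 of 10, at *Cdx2*, 147 bases before its start, against 1.74%, and the motif GTCACGTG bound by *Tfeb* and its relatives in 0 of 10, against 2.25%. Both strands were searched. The windows of the members that fell held 22 CpG at *Gata3*, 18 at *Cdx2*, 17 at *Krt18* and 6 at *Krt8*, against a median of 7 over all windows. Those of members that did not pass or had no adjusted p held 24 at *Esx1*, 22, 20 and 6 at *Tfeb* and 3 and 10 at *Elf5*. They ran over a wider range, and the difference was not tested.

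Levels were compared between genes per length of exon, in RPKM. In WT the keratins *Krt18* (8.82 RPKM) and *Krt8* (7.29 RPKM) were highest, followed by *Tfeb* (5.49 RPKM) and *Tead4* (4.81 RPKM). *Krt19* (2.08 RPKM) and *Esx1* (2.03 RPKM) did not differ beyond the spread of their libraries. *Gata3* followed at 1.35 RPKM, *Cdx2* at 0.576, *Hand1* at 0.125 and *Elf5* at 0.017 RPKM. In KO-labelled libraries *Krt18* (4.72 RPKM) overlapped with *Tfeb* (4.64 RPKM), *Tead4* (4.15 RPKM) overlapped with *Krt8* (4.07 RPKM), and *Gata3* (0.205 RPKM) overlapped with *Cdx2* (0.16 RPKM). Among protein-coding genes, *Krt18* moved from the percentile 76.1 to 68 and *Gata3* from 54.6 to 41.5.

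**Figure D1:**
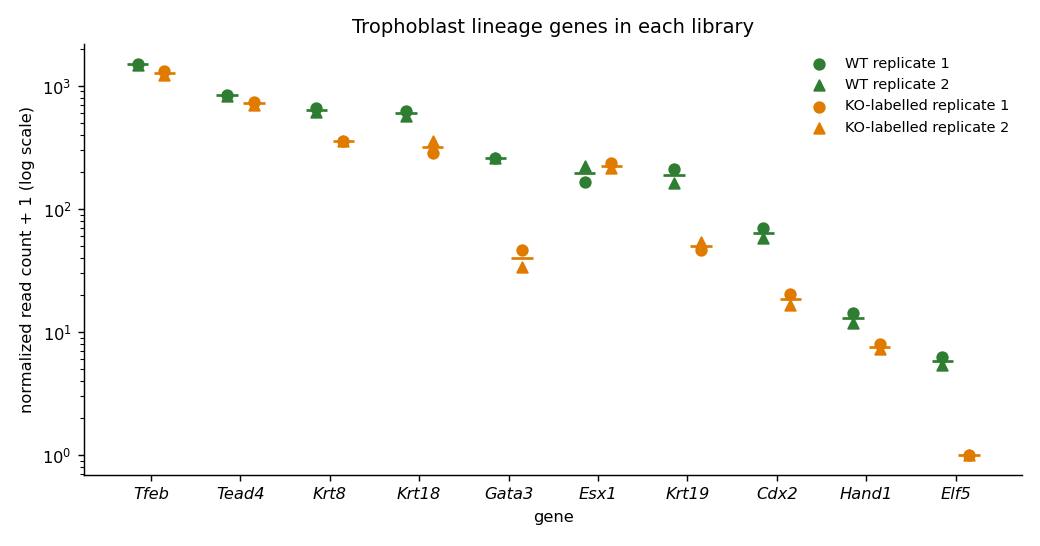
Normalized count plus 1, on a log axis, of the 10 trophoblast genes in each of the 4 libraries. Green marks are WT and orange marks KO-labelled, circles and triangles are replicates 1 and 2, and lines are group means. The groups do not overlap for 8 of the 9 tested genes, the exception being *Esx1*, against 70.2% of all tested genes; *Gata3* has 260 and 258 against 45.3 and 32.9.

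*Cdx2*, which encodes the homeobox factor that specifies trophectoderm, lies on the minus strand of chromosome 5 (mm9, 148112381 to 148118846). Its normalized counts were 68.9 and 56.6 in WT and 19.2 and 15.7 in KO-labelled libraries, from raw counts of 52, 52, 22 and 20. Both KO-labelled libraries were below both WT libraries. The mean fell from 62.8 ± 8.71 to 17.4 ± 2.48 (SD, n = 2), 3.61-fold (log2 -1.85 ± 0.55, 95% interval -2.93 to -0.78, adjusted p = 0.00357), which missed the 0.001 threshold of a call. When any single library of the 4, from either group, was left out, *Cdx2* stayed lower but did not pass (adjusted p = 0.0515 to 0.166). With counts halved, since low counts were mostly even, the adjusted p of *Cdx2* was 0.0237.

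*Gata3*, which encodes a zinc finger factor acting in parallel with CDX2, lies on the minus strand of chromosome 2 (mm9, 9778705 to 9811661). The WT libraries had 260 and 258 normalized counts and the KO-labelled libraries 45.3 and 32.9, and the groups were far apart. *Gata3* fell from 259 ± 1.25 to 39.1 ± 8.78 (SD, n = 2), 6.65-fold (log2 -2.73 ± 0.31, adjusted p = 4.59e-17), which was the largest among the members with a fold estimate and an adjusted p. Leaving out any single library gave -2.97 to -2.51. Of its exon bases, 5.8% are shared with overlapping genes, 3.9% with *Gm13256* on the opposite strand and 1.9% with *9230102O04Rik*. Reads there may be counted for either gene.

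*Elf5*, which encodes an ETS factor of trophoblast stem cells, had raw counts of 4, 4, 0 and 0, and lies on chromosome 2 (mm9, 103251845 to 103291146). In normalized counts, WT had 5.3 and 4.36, and no KO-labelled read was counted. A count of 0 allows up to 3 read pairs, or 6 counts where both mates are counted, in each library, and the WT counts of *Elf5* lie under that limit, so that no fold is given. Its unadjusted p was 0.0513, and without independent filtering its adjusted p was 0.182. *Hand1*, on chromosome 11 (mm9, 57642207 to 57646320), was also low, with raw counts of 10, 10, 8 and 8 and normalized counts of 13.3 and 10.9 in WT and 6.97 and 6.26 in KO-labelled libraries. Its log2 change was -0.87 ± 1.08 (95% interval -2.98 to 1.24, adjusted p = 0.608), an interval that holds both a large fall and a rise. These limits cover counting error only.

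*Esx1*, an X-linked homeobox gene of the extraembryonic tissue (mm9, X, 133649936 to 133656622), was the one member whose groups overlapped. Its normalized counts were 163 and 224 in WT and 235 and 212 in KO-labelled libraries (log2 0.20 ± 0.25, 95% interval -0.30 to 0.70, adjusted p = 0.613). Without WT replicate 1 the change of *Esx1* was -0.0011, so that its sign depends on this library. Of the 9 tested members, 8 had groups that did not overlap, against 70.2% of all tested genes.

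*Tead4*, the TEAD factor upstream of *Cdx2* in the trophectoderm (mm9, chromosome 6, 128174306 to 128250841), had 834 and 832 normalized counts in WT and 734 and 700 in KO-labelled libraries (log2 -0.22 ± 0.13, adjusted p = 0.225). *Tfeb* (mm9, chromosome 17, 47873979 to 47929368) had 1514 and 1483 in WT and 1313 and 1212 in KO-labelled libraries (log2 -0.25 ± 0.11, adjusted p = 0.0696). Both sat lower in each KO-labelled library, and neither passed. *Tfeb* was past 0.05 with edgeR (adjusted p = 0.0202) and with a low-count filter (adjusted p = 0.0432), and with the median of chromosome 17 (-0.14) removed its change was -0.11 (adjusted p = 0.514).

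**Figure D2:**
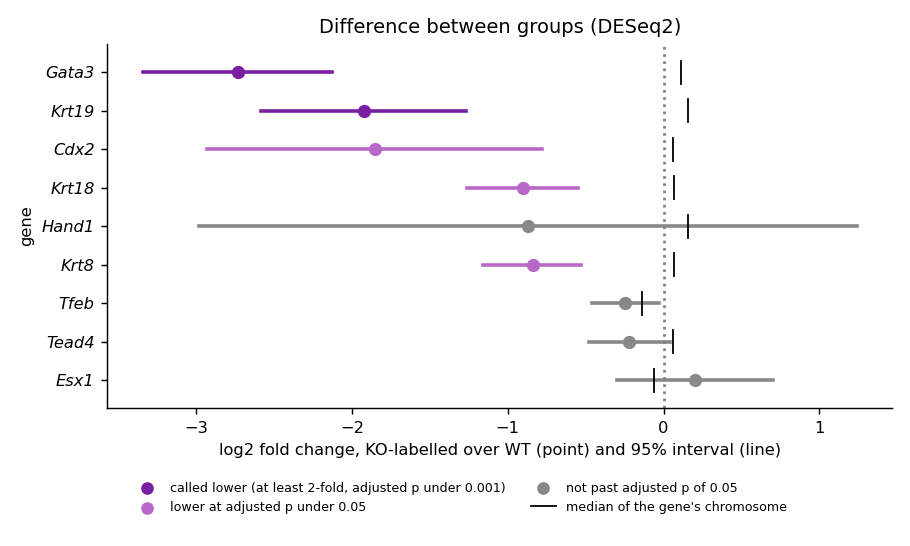
log2 fold change of KO-labelled over WT with its 95% interval for the 9 members that had a test, on a linear axis in log2 units. Dark purple marks called genes, light purple genes past an adjusted p of 0.05, grey the others, and black ticks the median of the gene's chromosome. The intervals of *Gata3*, *Krt19*, *Cdx2*, *Krt18* and *Krt8* lie below 0, and that of *Hand1* runs from -2.98 to 1.24.

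*Krt8* and *Krt18* encode the type II and type I keratins that pair in simple epithelia, and lie 23.9 kb apart on chromosome 15 (mm9, 101827142 to 101834773 and 101858647 to 101862457). *Krt8* had 654 and 615 normalized counts in WT and 354 and 353 in KO-labelled libraries, and *Krt18* had 626 and 564 against 282 and 353. Each fell in both KO-labelled libraries, by 1.8-fold for *Krt8* (log2 -0.84 ± 0.16, adjusted p = 2.01e-06) and 1.87-fold for *Krt18* (log2 -0.90 ± 0.18, adjusted p = 5.81e-06), and both falls were under the 2-fold of a call. The log2 change of *Krt18* was past 2-fold without KO replicate 2 (-1.07) and smaller without KO replicate 1 (-0.75). The ratio of *Krt8* to *Krt18* in RPKM was 0.81 and 0.846 in WT and 0.972 and 0.776 in KO-labelled libraries, which overlapped. Of the exon bases of *Krt8*, 88.3% (1594 of 1805) have a copy at 95% identity or more over at least 75 bases on chromosome 7 (mm9, 24142113 to 24143830), inside *Nlrp4e*, which had counts of 2, 0, 0 and 0. How such reads were assigned is not given in the sources used here, so the value of *Krt8* is uncertain. *Krt18* has no such copy.

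*Krt19*, the type I keratin without a tail that also pairs with *Krt8*, is on chromosome 11 (mm9, 100002124 to 100009979). It had 211 and 161 normalized counts in WT and 45.3 and 52.4 in KO-labelled libraries, and fell 3.8-fold (log2 -1.92 ± 0.33, adjusted p = 1.20e-07). The call of *Krt19* was lost without WT replicate 1 (adjusted p = 0.00891) and without KO replicate 1 (adjusted p = 0.00118). The fold of *Krt19* was larger than that of *Krt18*, and its ratio to *Krt18* in RPKM was 0.254 and 0.216 in WT and 0.121 and 0.112 in KO-labelled libraries, which did not overlap and were not tested. Of 8 other keratins, 6 had an adjusted p; *Krt7*, another trophoblast keratin, fell (log2 -1.56 ± 0.53, adjusted p = 0.0142, or 0.0574 with counts halved), *Krt42* rose (log2 0.59, adjusted p = 4.99e-09), and *Krt23*, named after its values were seen, fell at least 3.05-fold from raw counts of 8 and 18 to 0 and 0, taken as 6 counts per library (adjusted p = 0.00217). *Krt23* had no adjusted p with counts halved or with chromosome medians removed.

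Neighbouring genes were read as the nearest on each side of a member, at 2.55 to 2776 kb. They do not give the change of a whole region. The nearest genes with a mean of at least 50 normalized counts beside *Cdx2* were *Pan3* at 123 kb (log2 0.14) and *Polr1d* at 189 kb (log2 0.12). Neither passed. Beside *Gata3*, *Taf3* at 24.5 kb did not pass (log2 0.21), while *Celf2*, 2776 kb away, fell (log2 -1.14, adjusted p = 2.71e-05). *Krt10* and *Gm11598*, 751 and 94.6 kb from *Krt19*, had log2 changes of -0.06 and -0.12. *Eif4b* beside *Krt18* fell by 0.23 on the log2 scale (adjusted p = 0.0198). Past 0.05 beside the other members were *Cat*, 2.86 kb from *Elf5* (log2 -0.56, adjusted p = 3.43e-09), *Tspan9* beside *Tead4* (log2 -0.52), *Mdfi* beside *Tfeb* (log2 -0.53) and *Fam199x* beside *Esx1* (log2 0.48). *Krt8* and *Krt18*, each other's neighbours, had log2 changes of -0.84 and -0.90. On the other side of *Krt8*, *9430023L20Rik* at 706 kb did not pass (log2 0.20). The medians of the chromosomes of the 5 members that fell lay between 0.06 on chromosome 5 and 0.16 on chromosome 11.

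**Figure D3:**
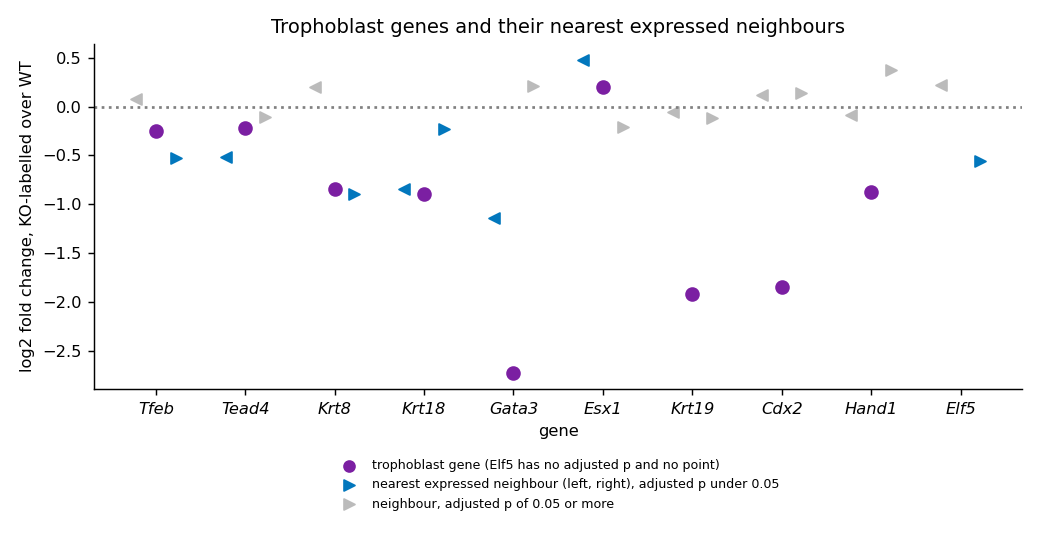
log2 fold change of each member (purple circle) beside that of the nearest gene on each side with a mean of at least 50 normalized counts (triangles, blue past an adjusted p of 0.05, grey otherwise). *Gata3* at -2.73 and *Krt19* at -1.92 lie below both of their neighbours.

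Other trophoblast genes were read from 2 further lists of 20 genes each, also chosen with earlier results of these data known. Of the genes of trophoblast stem and progenitor cells, 18 had an adjusted p; 12 fell, 2 rose and 4 did not pass, and 8 were called lower, with a median log2 change of -0.79, against the 15.8%, 16.4% and 3.15% of all tested genes that fell, rose and were called lower. The 12 that fell include *Fgf4* and *Nr0b1*, which are not particular to trophoblast. In these mESCs they stood at 106 and 55.1 RPKM in WT and fell by 0.21 and 0.45 on the log2 scale. *Fgfr2*, the receptor for the FGF4 that maintains trophoblast stem cells, had 1046 and 925 normalized counts in WT and 123 and 151 in KO-labelled libraries and fell 7.18-fold (adjusted p = 9.56e-57). *Id2*, a helix-loop-helix inhibitor, had 524 and 617 against 67.9 and 68.9 and fell 8.35-fold (adjusted p = 5.41e-41). *Ddah1*, an arginine-metabolism enzyme, fell 4.76-fold (3644 ± 108 to 765 ± 62.9, adjusted p = 2.92e-107). The homeobox genes *Rhox6*, *Rhox9* and *Msx2* and the cadherin gene *Cdh3* were called lower too, from 3.85-fold for *Rhox6* to 2.01-fold for *Cdh3*. *Eomes*, which cooperates with *Cdx2* and *Elf5*, fell from 648 ± 15.5 to 328 ± 3.24 (log2 -0.98 ± 0.16, adjusted p = 2.28e-08). *Tfap2a* rose from raw counts of 4 and 7 to 36 and 52 (adjusted p = 0.00946, or 0.0591 with counts halved) and *Lgals3* rose by 0.78 on the log2 scale (adjusted p = 0.000261).

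Of 20 genes of the differentiated placenta, 9 had at most 3 counts in every library and 5 had 0 in every library. Of the 8 with an adjusted p, *Phlda2*, a maternally expressed growth restrainer, was called lower (1402 ± 222 to 684 ± 9.04, log2 -1.04 ± 0.14, adjusted p = 8.03e-13), *Plac8* fell by 0.56 on the log2 scale (adjusted p = 0.00125), and *Ascl2*, a factor of the spongiotrophoblast, rose by 0.85 (adjusted p = 0.0152, or 0.0591 with counts halved). Over both lists, 3 genes rose and 14 fell of 26 tested, against 16.4% and 15.8% of all tested genes, and the share of the placental genes alone is near that background. With any single library left out, the number that rose was 0 (without KO replicate 2) or 1, and the number that fell was 12 or 13.

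**Figure D4:**
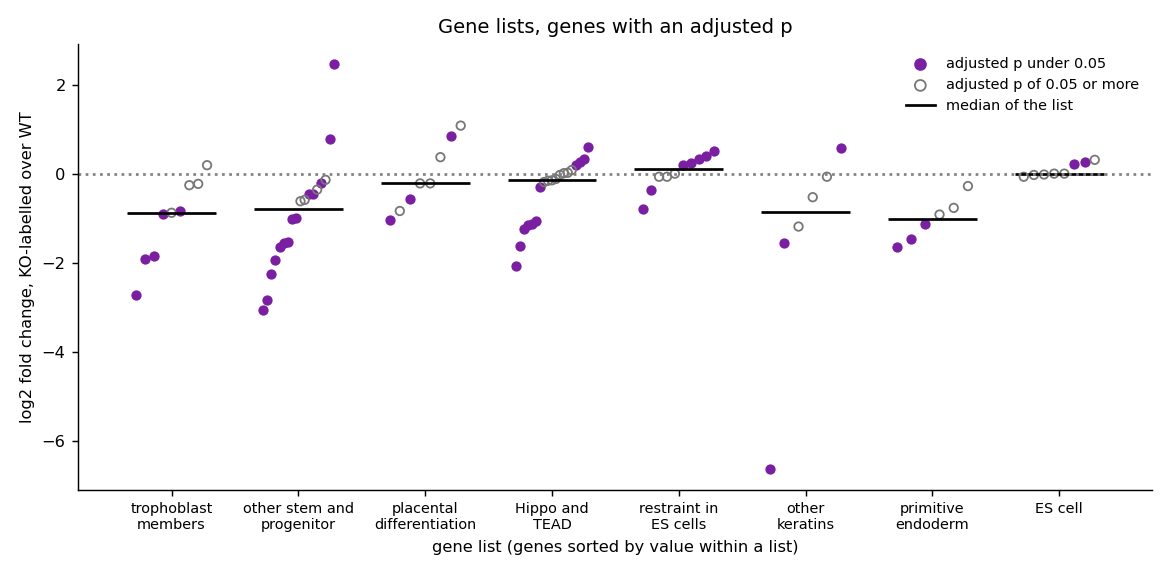
log2 fold change of single genes in each list, for genes with an adjusted p; filled points are past an adjusted p of 0.05, open points are not, and lines are list medians. Most trophoblast stem and progenitor genes lie below 0, with a median of -0.79; the point of *Krt23* is a fitted value against libraries at 0 and is not a bound.

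TEAD4 acts with coactivators that the Hippo kinases hold in the cytoplasm. Of 19 genes of this pathway, all with an adjusted p, 7 fell, 4 rose and 8 did not pass, with a median of -0.14, and 6 were called lower. Over all tested genes 15.8% fell, 16.4% rose and 3.15% were called lower, so that the number of pathway genes that rose is near the background. The coactivator gene *Wwtr1* fell from 1241 ± 124 to 601 ± 17.1 (log2 -1.05 ± 0.13, adjusted p = 7.80e-14), while *Yap1* did not pass (log2 -0.14, adjusted p = 0.218), though it was lower with chromosome medians removed (log2 -0.28, adjusted p = 0.00767). The TEAD targets *Ctgf* (1758 and 1558 normalized counts in WT, 375 and 420 in KO-labelled libraries, 4.16-fold lower, adjusted p = 1.43e-52) and *Cyr61* (3.07-fold lower, adjusted p = 9.75e-28) were called lower; 22.9% of the exon bases of *Ctgf* are shared with *Gm15270* on the opposite strand. The angiomotin genes *Amot* (log2 -1.15) and *Amotl2* (log2 -1.13), which bind YAP1, and *Vgll4* (log2 -1.23), a competitor of YAP1 for TEAD, were also called lower. *Tead1*, which shares 34.2% of its exon bases with a further annotated gene entry, fell by 0.28 (adjusted p = 0.01) and *Tead2* rose by 0.21 (adjusted p = 0.0144), while *Tead3* (log2 -0.02) did not pass. The kinase genes *Lats2*, *Stk3* and *Stk4* rose by 0.62, 0.34 and 0.27, and *Lats2* did not pass with counts halved (adjusted p = 0.0623). With chromosome medians removed *Lats2*, *Stk4* and *Tead2* did not pass (adjusted p = 0.052, 0.0887 and 0.244), while *Nf2* passed as lower (adjusted p = 0.000724) and *Sav1* as higher (adjusted p = 0.0402), which gave 9 lower and 2 higher. The number of genes that rose was 4 with all libraries, 2 without KO replicate 1, 1 without WT replicate 1 and 0 without KO replicate 2 or WT replicate 2.

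**Figure D5:**
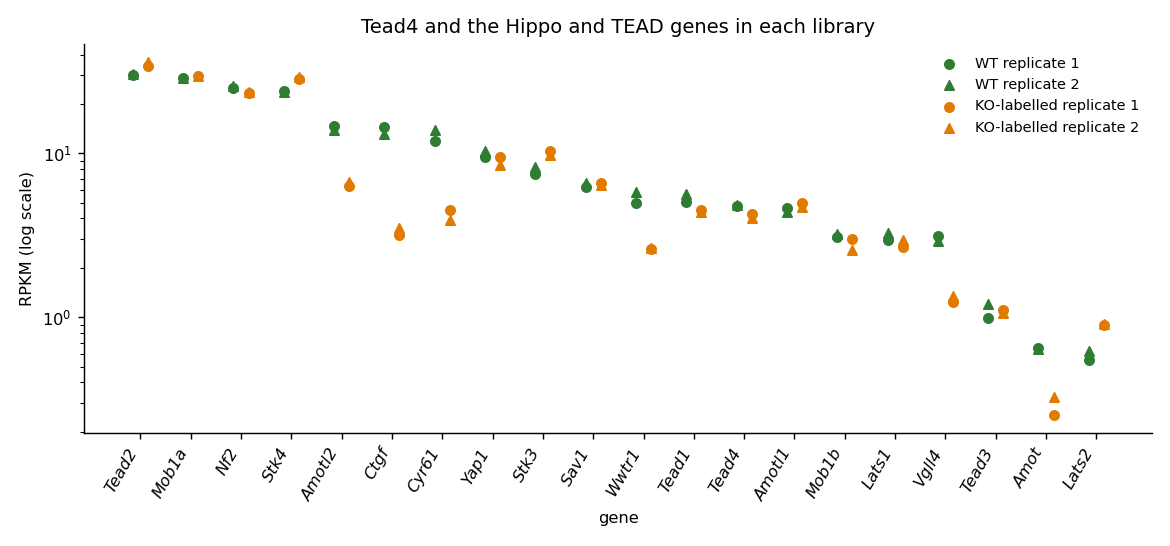
RPKM, on a log axis, of *Tead4* and the Hippo and TEAD genes in each library, with green for WT, orange for KO-labelled, and circles and triangles for replicates 1 and 2. *Ctgf*, *Cyr61*, *Wwtr1* and *Amotl2* are lower in both KO-labelled libraries, and *Tead4* moves from 4.81 to 4.15 RPKM on average.

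Among the relatives of *Tfeb*, *Mitf* rose from 391 ± 75.1 to 640 ± 36.6 (log2 0.71 ± 0.18, adjusted p = 0.000409) and *Tfe3* fell by 0.36 (adjusted p = 7.44e-06). Of 10 genes that restrain the trophoblast program in mESCs, 5 rose, 2 fell and 3 did not pass, against 16.4% and 15.8% of all tested genes that rose and fell; 0 were called by DESeq2 or edgeR, and 5 were higher and 2 lower at an unadjusted p under 0.05. *Pou5f1* (log2 0.01) and *Nanog* (log2 -0.06) did not pass. *Setdb1*, which encodes an H3K9 methyltransferase, rose by 0.53 (adjusted p = 1.23e-12) and *Sall4* by 0.40 (adjusted p = 3.00e-09), while the DNA methyltransferase gene *Dnmt3b* fell by 0.79 (adjusted p = 3.18e-29) and *Ehmt2* by 0.36 (adjusted p = 3.99e-05).

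Markers of other cell types were read beside these values, against the 15.8% and 16.4% of all tested genes that fell and rose. Of 8 primitive endoderm markers 6 were tested and 3 fell: *Lama1* (log2 -1.63, adjusted p = 6.80e-62), *Sox7* (log2 -1.45) and *Gata4* (log2 -1.13). With edgeR 4 of the 8 were lower, and 5 were lower at an unadjusted p under 0.05. The summed level of the 8 was 10.2 and 10.3 RPKM in WT and 3.76 and 3.65 RPKM in KO-labelled libraries, of which *Lama1* alone made up 7.46 and 7.34 RPKM and 2.33 and 2.48 RPKM. Of 8 streak and mesoderm markers 6 were tested; *T* (log2 -3.74, adjusted p = 7.73e-38) and *Kdr* (log2 -1.68) fell, and *Bmp4* rose by 0.97 (adjusted p = 3.46e-16). Their summed level of 13.9 and 13.8 against 20.1 and 18.4 RPKM was mostly *Bmp4*, at 9.14 and 8.73 against 18.5 and 16.6 RPKM. Of 4 surface ectoderm markers 2 were tested and 0 passed with DESeq2, with edgeR or at an unadjusted p under 0.05; they summed to between 1.69 and 2.14 RPKM, and *Krt5* had 0 counts in 3 libraries. Of 5 fibroblast markers 3 were tested, and *Thy1* rose by 1.59 (adjusted p = 1.62e-10) while *Col1a1* (log2 0.98) and *Col1a2* (log2 -1.19) did not pass. With edgeR *Col1a1* was also higher (adjusted p = 0.0399). The fibroblast sum of 1.53 and 1.84 against 4.49 and 5.15 RPKM was nearly all *Thy1*, at 1.4 and 1.66 against 4.31 and 4.93 RPKM, and *Lum* had 0 counts in 3 libraries. The part of these cell types in the values of the 10 genes was not tested.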

How the data were processed

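RNA from 2 HATX WT and 2 Spen KO clone 2 libraries had been prepared with a stranded kit after ribosomal RNA depletion and sequenced as paired 75-base reads. The authors aligned reads to mm9 with STAR and deposited raw counts per gene from featureCounts on GENCODE vM1; versions, strand setting and how multiply matching reads were counted are not given in the sources used here. Between 63.4% and 65.9% of counts from 1 to 19 were even, so mates appear to have been counted separately, and counts halved and rounded were tried after seeing the data. Total counts were 36667685 to 61908422, and limits cover counting error only. KO-labelled and WT libraries entered a fit with group as its only term, tested with the Wald test of DESeq2 1.42.0 (R 4.3.3) and adjusted by Benjamini-Hochberg; the script was tested on simulated data. A call required a 2-fold change and an adjusted p under 0.001; rose and fell require an adjusted p under 0.05. edgeR 4.0.16 (quasi-likelihood test), other scalings and filters, removal of chromosome medians (genes with a mean of at least 50), a block for replicate number and leaving out each library were alternatives. RPKM was computed here from exon length and total counts. The members and gene lists were chosen with earlier results of these data known. All members were named, and from other lists the called genes and up to 4 more with the largest significant change. *Fgf4* and *Nr0b1* were named for their level, and mESC, TEAD4 partner and MiT genes could be named in full. A called gene of the lists is not reported by name here. Same-numbered replicates did not deviate together (r = -0.0177 over 13306 genes).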

Additional observations from a re-analysis of the deposited data

How the results depend on the processing

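Of the log2 changes of single members with an adjusted p under the alternatives, 86 kept their direction and side of the 0.05 threshold, 4 lost it (*Cdx2* without each library), 2 passed it (*Tfeb*, -0.26 with edgeR and with the low-count filter) and 1 turned (*Esx1*, -0.0011 without WT replicate 1, up to 0.46 without another library). Another 15, of *Elf5* and *Hand1*, had no adjusted p to compare and kept their direction. The members called lower were 4 at an adjusted p under 0.001 with no minimum fold and 1 to 3 with a library left out. The median of the members was -0.97 with chromosome medians removed and -0.97 to -0.80 with a library left out. Other trophoblast genes that rose numbered 1 with counts halved, an alternative chosen after seeing the data, and 0 to 1 with a library left out. Hippo and TEAD genes that rose numbered 2 with chromosome medians removed, 1 with a replicate block and 0 to 2 with a library left out; the cause was not tested. Replicate numbers mark no shared origin here, and with the replicate block the median of the members was -0.86. With a library left out, the lone library is taken to vary like the other group. Depth limits *Elf5* and *Hand1*, with at most 10 counts per library.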
